A study of Mus musculus with 4 samples.

Results

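The clusters described here were the rows of a mouse exon array table to which the platform annotation gave 2 or more different gene symbols. A transcript cluster is the array maker's unit for 1 putative gene, with 1 log2 signal value per array, and a cluster with several symbols is a position where that unit could not be tied to a single gene. Of 265511 clusters in the table, 2472 carried at least 2 different symbols. The row Pcdhga12;Pcdhga10 was left out because it belongs to the clustered protocadherins, which left 2471 clusters. Rows with a symbol that starts with Hist were to be left out too, but the annotation uses the newer histone names, so no row had one, and 64 clusters with core or linker histone symbols stayed in. The other clusters in the table had 1 symbol (27116) or none (235923). No measured value entered the choice.

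Signal was measured in the hippocampus of 2 Malat1 knock-out and 2 wildtype C57BL/6 mice, all male, 3 months old and untreated, with 1 array per mouse. The series' design text states that the knockout and wildtype animals of a pair were littermates, but the labels do not say which replicate numbers form a pair. The labels do not say which stretch of Malat1 was deleted, and although one label calls the RNA neuronal, the protocols describe whole dissected hippocampi. In such bulk RNA, fewer cells of a type and less RNA per cell cannot be told apart.

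Malat1 is a long noncoding RNA held in nuclear speckles, the bodies where splicing factors gather. Mouse genes often come in families of near-identical copies that arose by tandem duplication, as in the olfactory and vomeronasal receptors that detect odours and pheromones. Other copies are processed pseudogenes, made when the messenger RNA of an abundant gene, such as Gapdh or a ribosomal protein gene, was copied back into the genome elsewhere. Probes in either kind of copy can match several genes, and a multi-symbol cluster may also lie where different genes overlap or stand side by side.

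Malat1 itself, measured by a cluster with 1 symbol, had log2 signals of 8.53 and 8.70 in the knockout arrays, against 11.19 and 11.25 in the wildtype arrays. Both knockout values lay below both wildtype values, and the difference was -2.61 (95% interval -2.95 to -2.27). Array medians lay between 5.59 and 5.63, and the highest, 5.63, was that of knockout replicate 2. Hippocampal neuron markers were all measured: their wildtype means lay between 6.34 and 10.43, and their knockout-minus-wildtype differences lay between -0.14 and 0.03. Of the markers of other cell types, the 4 choroid plexus markers differed by -0.54 (Ttr) to 0.19, and their part in any result below was not tested.

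Most of the clusters named close relatives or neighbours. On 1689 clusters there were 2 symbols, on 392 there were 3, on 349 there were 4 to 9, and on 41 there were 10 or more, with 15 as the most. Together they named 3142 symbols, of which 2102 appeared on no cluster of their own. In 991 clusters all symbols shared the letters before their first digit, as in Psg21;Psg23, and are called shared-stem clusters here. In 664 the names differed, as in Pigt;Nlrc3. A gene model (a Gm, LOC, Rik or clone number in place of a gene name) stood beside a named gene in 609 clusters, and 197 held models only. The remaining 10 held a small RNA symbol, 8 beside a host or neighbouring gene and 2 with small RNAs alone.

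The named genes were placed on the mouse genome with RefSeq's GRCm38.p6 table, and each cluster was sorted by its closest pair of genes. The closest genes overlapped in 143 clusters and lay within 100 kb of each other in 1083. They shared a chromosome at a larger distance in 574 clusters, lay on different chromosomes in 575, and in 96 fewer than 2 genes could be placed. Among the 991 shared-stem clusters 586 named genes within 100 kb, whereas 229 of the 609 clusters with a model beside a named gene had no pair of genes on the same chromosome.

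**Figure D1:**
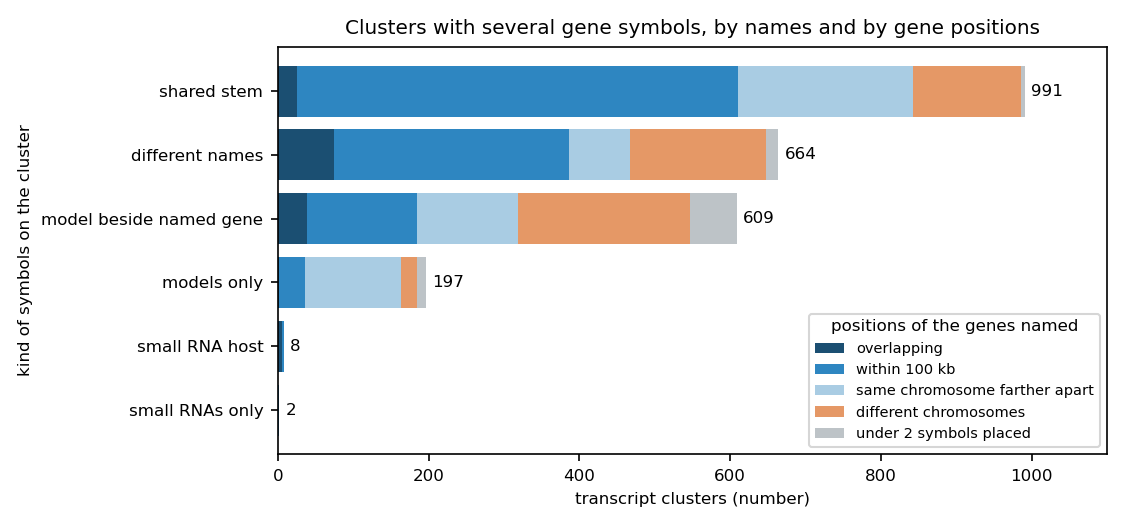
Number of transcript clusters (x axis) by kind of symbols (y axis) and, in colour, by the position of the closest pair of genes named on the cluster. Shared-stem clusters (991) were the most numerous and lay mostly within 100 kb, and clusters on different chromosomes (orange) came mostly from the kinds with a model beside a named gene (229) or with different names (181).

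The genes named on these clusters included more pseudogenes, as a share, than the genes on clusters with 1 symbol. Of 3023 genes found in the RefSeq table, 338 (11.2%) were pseudogenes, against 783 of 20240 (3.87%). A pseudogene stood on 622 of the clusters. Chromosome 7, which carries large vomeronasal receptor and Zscan4 arrays, held 362 of the 3023 genes, against 1695 of 20240 (8.37%) for clusters with 1 symbol. The shares were 6.98% against 4.66% on chromosome 17, 6.09% against 3.81% on the X chromosome and 1.19% against 0.0939% on the Y chromosome. The Y chromosome also held the clusters with the most symbols: 5 clusters carried Ssty1, a multicopy gene of spermatid development, among their 15 symbols, beside gene models. The brightest of them had 6.87 and 6.76 in the knockout arrays, against 7.05 and 6.98 in the wildtype arrays. Its groups did not overlap, and the differences of the 5 lay between -0.20 and -0.05. Without wildtype replicate 1, 3 of the 5 lay above 0.

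Promoter sequences showed how alike the promoters of the genes on a cluster can be. Probe and transcript sequences were not compared, so whether a cluster's probes match each of its genes was not tested. For 661 of 1202 distinct pairs of symbols, RefSeq gave a 300-base promoter window for both genes, and the share of 12-base words of one window that recurred in the other, on either strand, was counted. No word was shared by 393 pairs (59.5%). The median share was 13.5% over 272 shared-stem pairs and 47.1% over 34 pairs of models, whereas 250 of 292 pairs with different names (85.6%) shared no word. More than 50% of the words were shared by 62 shared-stem pairs (22.8%) and by 17 pairs with different names (5.82%).

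The following windows show 3 pairs of copies taken from clusters with large differences and, for contrast, the pair on the cluster with the highest signal. Each is given 5′ to 3′ on the gene's strand from the RefSeq table, with the longest run that both windows of a pair have in common in capitals. The pair on the X chromosome, Ott and its model Gm15085, came first, with 295 of 300 bases the same at the same position and a longest run of 98 bases.
Ott, GRCm38.p6 chrX:149097702-149098001, plus strand: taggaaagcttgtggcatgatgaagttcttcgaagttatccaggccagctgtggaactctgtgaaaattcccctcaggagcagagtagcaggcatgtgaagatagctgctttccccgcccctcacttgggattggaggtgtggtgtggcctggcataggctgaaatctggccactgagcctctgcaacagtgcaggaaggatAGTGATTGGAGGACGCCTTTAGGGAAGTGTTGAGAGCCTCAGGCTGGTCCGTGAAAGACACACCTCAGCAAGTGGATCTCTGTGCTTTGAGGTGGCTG
Gm15085, GRCm38.p6 chrX:149447367-149447666, plus strand: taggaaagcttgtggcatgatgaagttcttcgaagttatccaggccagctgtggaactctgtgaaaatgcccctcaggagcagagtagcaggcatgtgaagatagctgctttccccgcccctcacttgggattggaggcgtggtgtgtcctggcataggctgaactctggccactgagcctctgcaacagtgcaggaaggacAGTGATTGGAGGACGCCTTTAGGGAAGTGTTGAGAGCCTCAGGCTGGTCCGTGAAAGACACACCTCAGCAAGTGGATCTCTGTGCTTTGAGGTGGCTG
Psg21 and Psg23, which encode pregnancy-specific glycoproteins of the placenta, had a common run of 214 bases.
Psg21, GRCm38.p6 chr7:18656676-18656975, minus strand: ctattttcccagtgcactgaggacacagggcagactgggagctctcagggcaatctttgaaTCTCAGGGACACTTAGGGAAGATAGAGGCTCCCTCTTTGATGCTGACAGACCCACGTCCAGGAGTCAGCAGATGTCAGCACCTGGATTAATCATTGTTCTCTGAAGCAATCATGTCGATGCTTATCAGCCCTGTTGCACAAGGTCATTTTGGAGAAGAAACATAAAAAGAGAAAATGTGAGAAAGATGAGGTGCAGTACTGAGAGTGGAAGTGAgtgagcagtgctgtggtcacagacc
Psg23, GRCm38.p6 chr7:18616452-18616751, minus strand: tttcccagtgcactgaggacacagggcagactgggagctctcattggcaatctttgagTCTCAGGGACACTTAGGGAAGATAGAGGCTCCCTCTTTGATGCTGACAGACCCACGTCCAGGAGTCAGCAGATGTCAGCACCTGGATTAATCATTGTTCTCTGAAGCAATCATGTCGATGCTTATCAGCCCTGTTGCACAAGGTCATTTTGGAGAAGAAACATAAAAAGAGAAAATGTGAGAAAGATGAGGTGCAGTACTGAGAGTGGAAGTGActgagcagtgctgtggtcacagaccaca
Zscan4c and Zscan4f, which encode zinc finger proteins of the early embryo, had a common run of 127 bases, which starts at position 1 in one window and at position 24 in the other.
Zscan4c, GRCm38.p6 chr7:11005495-11005794, plus strand: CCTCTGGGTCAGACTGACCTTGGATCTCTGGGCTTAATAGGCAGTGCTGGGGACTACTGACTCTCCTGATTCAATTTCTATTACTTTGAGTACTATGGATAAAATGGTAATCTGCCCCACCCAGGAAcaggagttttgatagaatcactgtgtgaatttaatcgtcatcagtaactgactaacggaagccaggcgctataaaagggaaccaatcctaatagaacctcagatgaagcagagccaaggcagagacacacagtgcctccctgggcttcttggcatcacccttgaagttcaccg
Zscan4f, GRCm38.p6 chr7:11397665-11397964, plus strand: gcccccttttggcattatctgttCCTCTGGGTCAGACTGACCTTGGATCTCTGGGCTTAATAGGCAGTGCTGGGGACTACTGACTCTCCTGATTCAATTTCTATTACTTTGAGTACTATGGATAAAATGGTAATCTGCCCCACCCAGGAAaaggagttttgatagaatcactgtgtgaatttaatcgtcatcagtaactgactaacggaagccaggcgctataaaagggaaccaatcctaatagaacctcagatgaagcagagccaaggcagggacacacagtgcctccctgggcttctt
Pigt encodes a subunit of the enzyme that attaches glycosylphosphatidylinositol anchors to proteins, and Nlrc3 encodes a protein of the NOD-like receptor family. Their windows, of which that of Pigt is the first of 2 listed, had a longest common run of 7 bases and shared no 12-base word.
Pigt, GRCm38.p6 chr2:164497275-164497574, plus strand: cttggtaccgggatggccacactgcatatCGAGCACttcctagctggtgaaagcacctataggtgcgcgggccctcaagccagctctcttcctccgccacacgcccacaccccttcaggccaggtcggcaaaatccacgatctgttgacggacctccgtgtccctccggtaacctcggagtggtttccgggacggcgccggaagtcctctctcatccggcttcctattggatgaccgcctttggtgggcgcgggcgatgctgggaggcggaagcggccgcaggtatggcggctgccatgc
Nlrc3, GRCm38.p6 chr16:3976583-3976882, minus strand: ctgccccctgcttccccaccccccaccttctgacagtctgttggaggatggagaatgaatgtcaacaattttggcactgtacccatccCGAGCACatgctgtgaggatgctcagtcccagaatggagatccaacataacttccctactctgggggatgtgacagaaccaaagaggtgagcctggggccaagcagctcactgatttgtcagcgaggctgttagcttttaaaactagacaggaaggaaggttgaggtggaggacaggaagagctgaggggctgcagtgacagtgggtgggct
The capitals thus covered between 98 and 214 bases in the windows of each pair of copies, and 7 bases in those of Pigt and Nlrc3, which lie on different chromosomes. The 3 printed pairs of copies were among the most alike, with 80.3%, 86.2% and 83.7% of 12-base words shared. Other pairs on the clusters named below for their difference shared from 0% (Olfr1437 and Olfr1436) to 83% (Vmn1r93 and Vmn1r121). For Olfr1265 and Olfr1269 the share was 15.6%.

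Wildtype signal was similar in its middle range to that of clusters with 1 symbol. Clusters with a mean over all 4 arrays of at least 4.95, the 25th percentile of the table, were tested, and 2266 of the 2471 passed that filter. Their wildtype means ranged from 4.86 to 13.94, with a median of 6.33, against a median of 6.49 for clusters with 1 symbol and 5.87 for those with none. Shared-stem clusters had a median of 5.94 and clusters whose genes lay on different chromosomes one of 7.03. Signal also depends on the probes of a cluster, so an order of clusters by signal is an order of array brightness and not of RNA abundance.

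The 10 brightest clusters named Gapdh, tubulin and mitochondrial genes among others, and none had an unadjusted p under 0.05 in the limma fit to all clusters. In a fit restricted to clusters with a symbol, described further on, the Gapdh set reached an unadjusted p of 0.0463, with an adjusted p of 1.00. Pigt;Nlrc3 was the brightest, with 13.95 and 13.92 in the knockout arrays, against 13.95 and 13.94 in the wildtype arrays. Its groups overlapped, and its difference was 0.00 (95% interval -0.31 to 0.30). Ipw;Gm26504 followed with 13.66 and 13.54 in the knockout arrays, against 13.58 and 13.57 in the wildtype arrays. Ipw is a noncoding RNA of the imprinted Prader-Willi region, expressed from the paternal allele, and its groups overlapped too.

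Tuba1b;Tuba1c;Gm5620, which names alpha-tubulins of the cytoskeleton, had 12.74 and 12.67 in the knockout arrays, against 12.69 and 12.71 in the wildtype arrays. The groups overlapped, with a difference of 0.01 (95% interval -0.30 to 0.31). The other bright clusters were a Gapdh set, the mitochondrial sets ATP6;ATP8 and ATP6;COX3;ATP8;ND3, the set Ankfy1;Synrg;Ppm1k, and 3 clusters with Slc38a6, an amino acid transporter gene. Slc38a6 was also the only symbol of 93 further clusters. Over the 10 brightest clusters, differences lay between -0.15 and 0.03, with adjusted p values of 0.912 to 1.00 in limma.

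The comparison of knockout with wildtype hippocampus asked whether any multi-symbol cluster changed in the absence of Malat1. No cluster rose or fell past the threshold, an adjusted p under 0.05 in a limma fit to all 199133 clusters tested with Benjamini-Hochberg adjustment. The count was 0 of 2266, and the share over the whole table was also 0%. The smallest adjusted p was 0.84, which was also that of Malat1, whose difference was 6.10-fold. The intervals show what the 4 arrays could resolve: for 1954 of the 2266 clusters (86.2%) the 95% interval lay wholly within 1.5-fold in either direction, and for 2219 (97.9%) within 2-fold. Unadjusted p values below are those of this fit unless another is named. With 2 arrays a group, p values rest only on the spread between these mice. In limma, the spread of each cluster is also drawn towards that of all clusters tested.

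At an unadjusted p under 0.05, 24 clusters (1.06%) passed, against 5.91% of all clusters tested and 1.08% of clusters with 1 symbol. Of these, 5 were higher and 19 were lower in the knockout, and the shares over all clusters tested were 3.16% and 2.75%. Without knockout replicate 2 the count was 8, and without wildtype replicate 1 it was also 8. A fit restricted to clusters with at least 1 symbol tested 1713 of the clusters with its own filter of 5.68, and its 95% intervals had a median half-width of 0.188, against 0.325 in the fit to all clusters. In that fit 73 (4.26%) had an unadjusted p under 0.05, against 3.96% of all clusters in it, with 26 higher and 47 lower. None passed the adjusted threshold there, whereas 1 cluster in all, Malat1, did (0.00451% of those tested, adjusted p = 0.0427).

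Both knockout values lay above both wildtype values in 300 clusters (13.2%), against 18.0% of all clusters tested, and below both in 411 (18.1%), against 15.2%. Differences over 1.5-fold were seen in 1 of the 2266 clusters that was higher and in 8 that were lower, and none exceeded 2-fold. Over all clusters tested the shares were 1.43% higher and 1.30% lower. Of the 25539 clusters with 1 symbol, 41 were higher and 79 lower by that much. The median difference was -0.014, with 1310 clusters (57.8%) below 0, against a median of 0.008 and 47.9% below 0 over all clusters tested. Without knockout replicate 2, the median was 0.001 and 1120 clusters (49.4%) lay below 0, against 50.3% of all clusters tested. With array medians centred, 1506 clusters (66.5%) lay below 0, against 51.8% of all clusters tested. Groups then did not overlap in 216 higher and 470 lower clusters, together 30.3%, against 33.3% of all clusters tested.

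The 17 clusters described next mostly named multicopy genes of the germ line, placenta or chemosensory organs. They had an unadjusted p under 0.05 and groups that did not overlap, with at most the 12 largest per direction. They were chosen for their difference, so their differences are a description and no test. Of these 17, 6 named olfactory or vomeronasal receptors and 6 named germ-line or placental families, and in 15 the wildtype mean was under 7.5. Low signal was usual: over all 2266 multi-symbol clusters tested, the 75th percentile of the wildtype mean was 7.22. Olfactory receptors stood on 205 of the 2266 and vomeronasal receptors on 90. The share of germ-line or placental families over all of them was not counted. All 17 had an adjusted p of 0.84 in limma.

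Ott;Gm15085, which names an X-linked gene first described in ovary and testis and its model copy, had 5.876 and 6.031 in the knockout arrays, against 6.997 and 6.570 in the wildtype arrays. The groups did not overlap, and at -0.83 (95% interval -1.34 to -0.32) this was the farthest below 0 of the 17, with an unadjusted p of 0.00942 in limma. The other cluster with exactly these symbols differed by -0.01, at a wildtype mean of 5.99. A set of 6 further clusters with Ott, Gm15085, Gm15127 and Luzp4 had differences between -0.16 and -0.01, and without wildtype replicate 1 they lay between -0.09 and 0.04. Their wildtype means lay between 5.18 and 6.22.

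Speer4e;Speer4d;4930572O03Rik, which names glutamate-rich proteins of spermatogenesis, had 5.17 and 4.93 in the knockout arrays, against 5.60 and 5.93 in the wildtype arrays. Both knockout values lay below both wildtype values, with a difference of -0.72. The other 4 clusters with this set of symbols had differences between -0.07 and 0.08, so the value belonged to 1 cluster of 5. The clusters with Speer4e or Speer4d alone differed by 0.25 and 0.26, to the other side.

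Among the chemosensory receptors, Vmn1r93;Vmn1r-ps79;Vmn1r121 had 6.59 and 6.46 in the knockout arrays, against 7.38 and 6.91 in the wildtype arrays. The difference was -0.62, and -0.39 without wildtype replicate 1, the highest array. Olfr1265;Olfr1269 had 5.92 and 5.91 in the knockout arrays, against 6.33 and 6.36 in the wildtype arrays. Of the 17 its replicate arrays lay closest together, and its difference of -0.43 lay between -0.44 and -0.42 whichever array was left out. In the other direction, Vmn2r67;Vmn2r68 had 5.61 and 6.06 in the knockout arrays, against 5.21 and 5.06 in the wildtype arrays, a difference of 0.70. Leaving out knockout replicate 2 moved it to 0.47, and leaving out knockout replicate 1 to 0.92.

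Psg21;Psg23, whose promoter windows are printed above, had 7.58 and 7.69 in the knockout arrays, against 7.22 and 7.32 in the wildtype arrays. The groups did not overlap, with a difference of 0.37. Another cluster with the same symbols had 6.21 and 6.28 in the knockout arrays, against 6.21 and 6.17 in the wildtype arrays, and the clusters with Psg23 alone differed by 0.06 and -0.17. Zscan4c;Zscan4d;Zscan4f;Zscan4-ps2 had 5.70 and 5.47 in the knockout arrays, against 5.25 and 4.92 in the wildtype arrays, a difference of 0.50. Fthl17e;Fthl17f;Fthl17b, which names X-linked relatives of ferritin heavy chain, had 6.09 and 6.18 in the knockout arrays, against 5.59 and 5.87 in the wildtype arrays. The groups did not overlap, and the clusters with Fthl17f alone differed by -0.07 and 0.11. The fifth higher cluster was Gm906;Gm8765, a pair of gene models, at 0.44. Without wildtype replicate 2 it differed by 0.29, and the Fthl17 cluster, at 0.40, differed by 0.26 without wildtype replicate 1.

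Only 2 of the 17 had a wildtype mean above 7.5, and both named genes active in most cells. Gapdh;Gapdh-ps15, of the glycolytic enzyme glyceraldehyde-3-phosphate dehydrogenase, had 9.78 and 9.59 in the knockout arrays, against 10.31 and 10.02 in the wildtype arrays. Hmgn2;Gm7125;Hmgn2-ps1, of a nucleosome-binding protein, had 7.93 and 7.95 in the knockout arrays, against 8.44 and 8.30 in the wildtype arrays. Neither pair of groups overlapped, and the differences were -0.49 and -0.43. The clusters with Hmgn2 or Gm7125 alone differed by -0.04 and 0.06, at wildtype means of 5.60 and 5.35.

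The remaining 6 lower clusters had differences of -0.53 to -0.42: Olfr1154;Olfr1158;Olfr1160, Vmn1r148;Vmn1r125;Vmn1r143, Amy2;1810008N23Rik, Cldn34c1;Cldn34c2, Olfr1437;Olfr1436 and E330014E10Rik;Pramel34;AA792892. Amy2 encodes an amylase of the pancreas and Cldn34c1 a claudin, a family of tight junction proteins. In 10 of the 12 lower clusters, wildtype replicate 1 was the higher of the wildtype arrays. A difference of similar size that missed an unadjusted p of 0.05 was that of 1700024B05Rik;Gm5930, with 6.96 and 5.97 in the knockout arrays, against 7.31 and 7.03 in the wildtype arrays. Its knockout arrays were almost 1 log2 unit apart, and its difference of -0.71 had a 95% interval of -1.68 to 0.26. Without knockout replicate 2 it was -0.21.

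**Figure D2:**
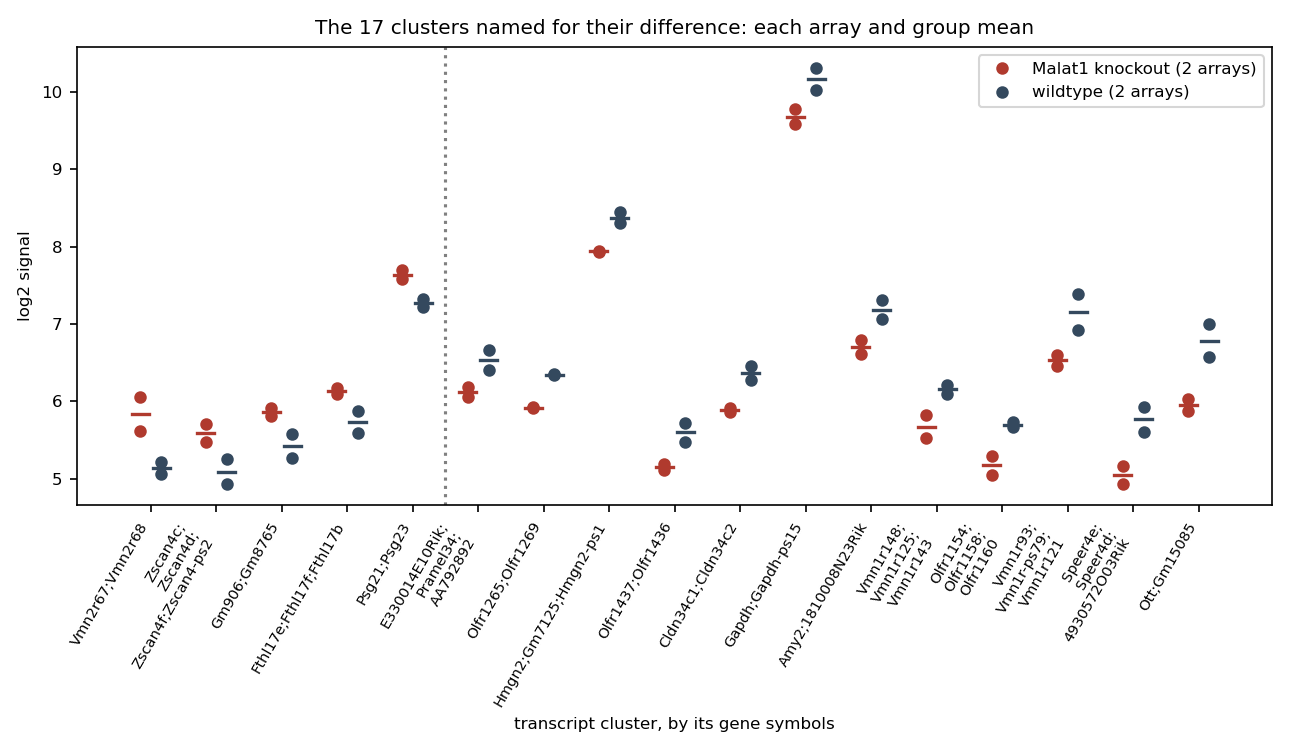
Log2 signal (y axis) of the 17 clusters named for their difference, with 1 point per array, Malat1 knockout left of wildtype, and a bar at each group mean of 2 arrays. The 5 clusters left of the dotted line were higher in the knockout and the 12 to its right lower, and all but the Gapdh and Hmgn2 clusters had wildtype means under 7.5.

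Gapdh appeared on 23 multi-symbol clusters, of which 22 passed the filter. Their wildtype means ranged from 5.02 to 13.08, so clusters with almost the same symbols spanned most of the range of the array. The brightest, Gapdh;Gm10293;Gapdh-ps15;Gm16374, had 12.97 and 12.89 in the knockout arrays, against 13.09 and 13.08 in the wildtype arrays. Its groups did not overlap, and its difference was -0.15 (95% interval -0.46 to 0.15). Over the 22 clusters, 18 lay below 0 and the median difference was -0.07, with a lowest value of -0.49 and a highest of 0.06. Leaving out any array kept 16 to 18 of the 22 below 0, and 57.8% of all multi-symbol clusters lay below 0. With almost the same symbols and the same arrays, these clusters are not 22 separate observations. At an unadjusted p under 0.05, 2 of the 22 were lower, against 2.75% of all clusters tested and 19 of all 2266 multi-symbol clusters. They were Gapdh;Gapdh-ps15 at -0.49, described above, and one with 10.47 and 10.39 in the knockout arrays, against 10.96 and 10.69 in the wildtype arrays. The difference of that second cluster was -0.40, and -0.26 without wildtype replicate 1. The 3 clusters with Gapdh alone differed by -0.06, -0.04 and -0.06, with wildtype means of 12.77, 5.73 and 5.23.

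Other sets of symbols were also carried by several clusters. Counted without regard to order, there were 1720 sets, and 418 of them stood on more than 1 cluster, 1169 clusters in all. Of the 39 sets on at least 5 clusters, 27 had wildtype means more than 1 log2 unit apart, and the median range within a set was 2.12. The range was 8.25 over the 15 clusters with the Gapdh set of 4 symbols, 1 of them below the filter. It was 3.40 over 8 clusters with C4a;C4b, the complement component 4 genes, and 2.41 over 11 clusters with Smarca5;Smarca5-ps, of a chromatin remodelling ATPase and its pseudogene.

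The 13 clusters with Cwc22;Il1f9 had the smallest range of the 39 sets, with wildtype means between 11.65 and 11.76. Cwc22 encodes a spliceosome protein and Il1f9 an interleukin-1 family cytokine. Values over the 13 clusters ran from 11.67 to 11.87 in knockout replicate 1 and from 11.70 to 11.84 in knockout replicate 2, against 11.78 to 11.82 in wildtype replicate 1 and 11.49 to 11.70 in wildtype replicate 2. Wildtype replicate 2 was the lowest array in 12 of the 13, the groups overlapped in all but 1, and all differences lay between 0.00 and 0.12. Without wildtype replicate 2, 12 of the 13 lay below 0. With the same symbols and nearly the same values, these clusters are not 13 separate observations.

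**Figure D3:**
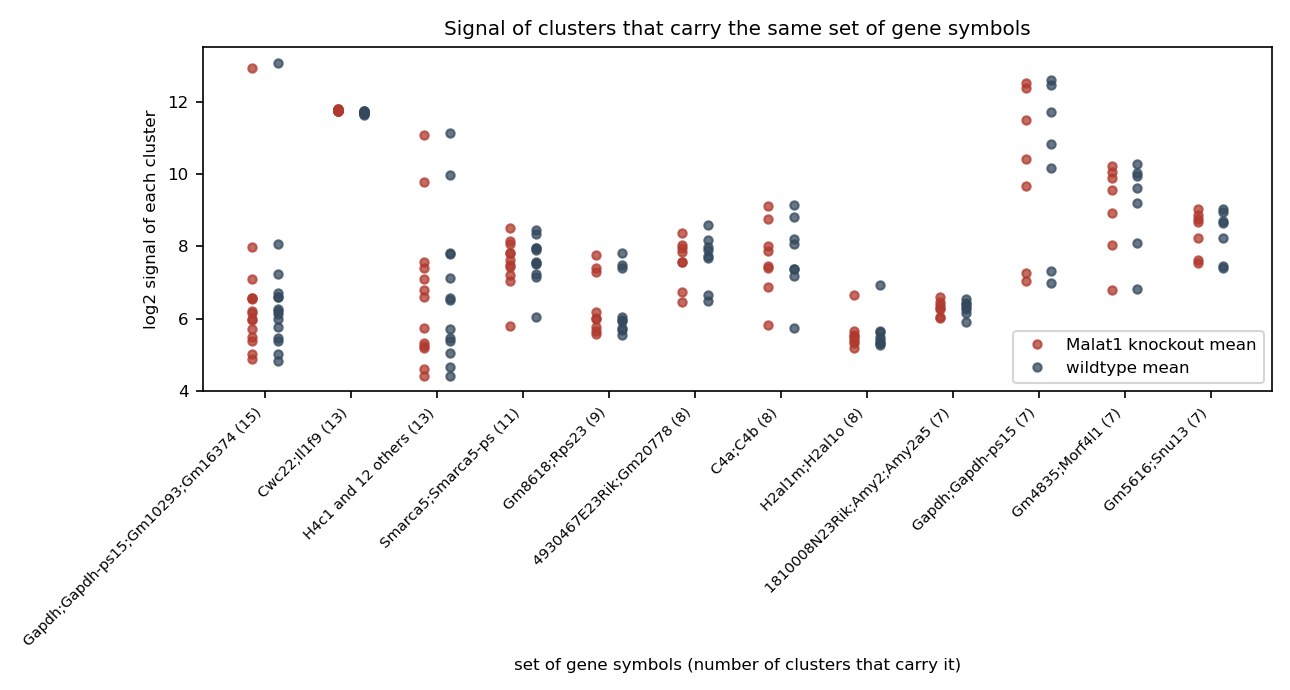
Log2 signal (y axis) of each cluster that carries the same set of gene symbols (x axis, with the number of clusters), with knockout means in red left of wildtype means in dark blue. The Gapdh set of 4 symbols ran over 8.25 log2 units in wildtype, whereas the 13 clusters with Cwc22;Il1f9 lay within 0.11.

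Clusters also differed from those that carry just 1 of their symbols. For 1263 clusters, at least 1 symbol also had a tested cluster of its own, which gave 1772 pairs of cluster and symbol over 907 symbols. Wildtype signals of the pairs were more than 1 log2 unit apart in 860, and their correlation across pairs was r = 0.266 (rho = 0.269), as a description only, since all values come from the same arrays and clusters recur among the pairs. Ankfy1;Synrg;Ppm1k, for instance, had a wildtype mean of 12.80, against 7.73, 7.38 and 7.97 for Ankfy1, Synrg and Ppm1k alone. Pigt;Nlrc3 stood at 13.94, against 8.93 for Pigt alone and 5.83 and 13.74 for the clusters with Nlrc3 alone. The knockout-minus-wildtype difference of a cluster and that of the symbol's own clusters were a median of 0.093 apart, and 20.8% of the pairs were more than 0.2 apart. For comparison, the median distance between replicate arrays over the multi-symbol clusters was 0.085 between the knockout arrays and 0.077 between the wildtype arrays.

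**Figure D4:**
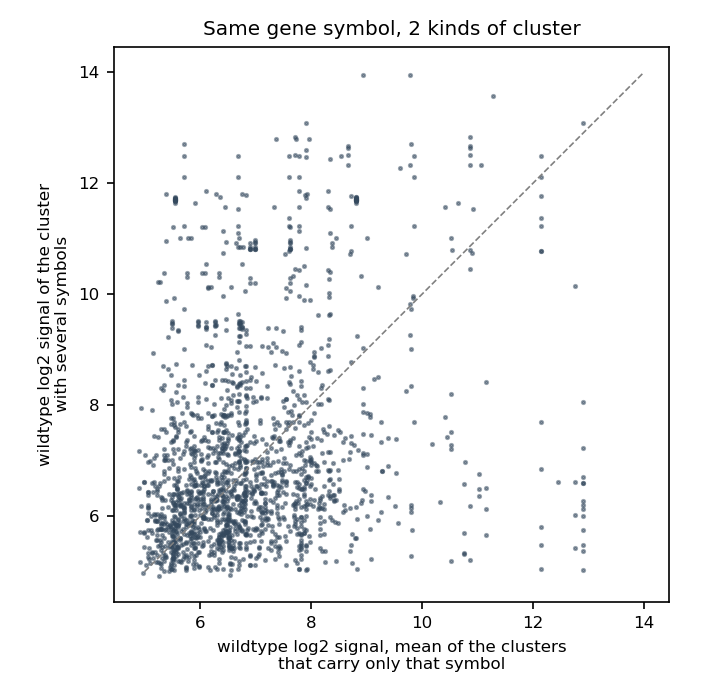
Wildtype log2 signal of each multi-symbol cluster (y axis) against the mean wildtype log2 signal of the clusters that carry only 1 of its symbols (x axis), 1 point for each of the 1772 pairs, with a dashed line where both are equal. Points spread widely on both sides of the line, and 860 pairs lay more than 1 log2 unit apart.

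Families were read by any symbol on a cluster that belonged to them, and none had a member past the adjusted threshold. Counts below 0 are set beside 57.8% for all multi-symbol clusters, 50.6% for clusters with 1 symbol and 47.9% for all clusters tested. Without knockout replicate 2, the share over all multi-symbol clusters was 49.4%. Olfactory receptors stood on 205 clusters above the filter, of which 136 lay below 0, with a median difference of -0.05. Without wildtype replicate 1 the count was 101 of 205 and the median 0.01. Vomeronasal receptors stood on 90, of which 67 lay below 0, with a median of -0.08, and without knockout replicate 2 or wildtype replicate 1 the counts were 48 and 46. At an unadjusted p under 0.05, 4 of the 205 olfactory clusters were lower and none was higher, and 3 of the 90 vomeronasal clusters were lower and 1 was higher, against 2.75% lower and 3.16% higher over all clusters tested. The whole-table share of lower clusters came mostly from clusters with no symbol (5302 of 5481). Lower at that p were 19 of all 2266 multi-symbol clusters and 160 of 25539 clusters with 1 symbol. Higher were 5 and 117, in that order. Of the counts below 0, the olfactory one rested most on wildtype replicate 1. The vomeronasal one rested on knockout replicate 2 and wildtype replicate 1.

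Clusters that name Pramel or Oog genes, germ-line relatives of the tumour antigen gene Prame, were singled out after their values were seen. Of 26 above the filter, 22 lay below 0, with a median difference of -0.19. Oog1;Pramel29 had 6.03 and 5.73 in the knockout arrays, against 6.89 and 6.22 in the wildtype arrays. The groups did not overlap, and its difference of -0.67 had an unadjusted p of 0.0627 in limma. Without wildtype replicate 1 it was -0.34. Wildtype replicate 1 was the highest array in 23 of all 28 such clusters, and without it 16 of 26 lay below 0 with a median of -0.08.

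Zinc finger genes stood on 104 clusters above the filter, of which 70 lay below 0, with a median of -0.03. Ribosomal protein genes, whose processed pseudogenes are common, stood on 171, of which 101 lay below 0, with a median of -0.02. The cluster with Rps28 and Gm16020 farthest from 0 had 7.40 and 6.62 in the knockout arrays, against 7.55 and 7.35 in the wildtype arrays. Its difference of -0.44 was -0.05 without knockout replicate 2, and its groups overlapped. Immunoglobulin and T cell receptor genes stood on 52, with 29 below 0. Of these, Trav5n-4;Trav5d-4 had 5.88 and 6.10 in the knockout arrays, against 6.37 and 6.36 in the wildtype arrays, a difference of -0.38 with an unadjusted p of 0.0437 in limma. Its groups did not overlap, while Trgv3;Trgv2, at -0.33 and at -0.13 without knockout replicate 1, had overlapping groups. Germ-line families of the X chromosome such as Xlr and Slx stood on 47, with 27 below 0. Cytochromes P450 were close to evenly split, with 13 of 25 below 0. Genes of the major histocompatibility complex, which present antigens, stood on 18, with 8 below 0. Their lowest, with H2-Q1 and H2-Q6 among its symbols, had 9.94 and 9.52 in the knockout arrays, against 10.65 and 9.93 in the wildtype arrays, so that its groups overlapped at a difference of -0.56. Without wildtype replicate 1 that difference was -0.20.

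**Figure D5:**
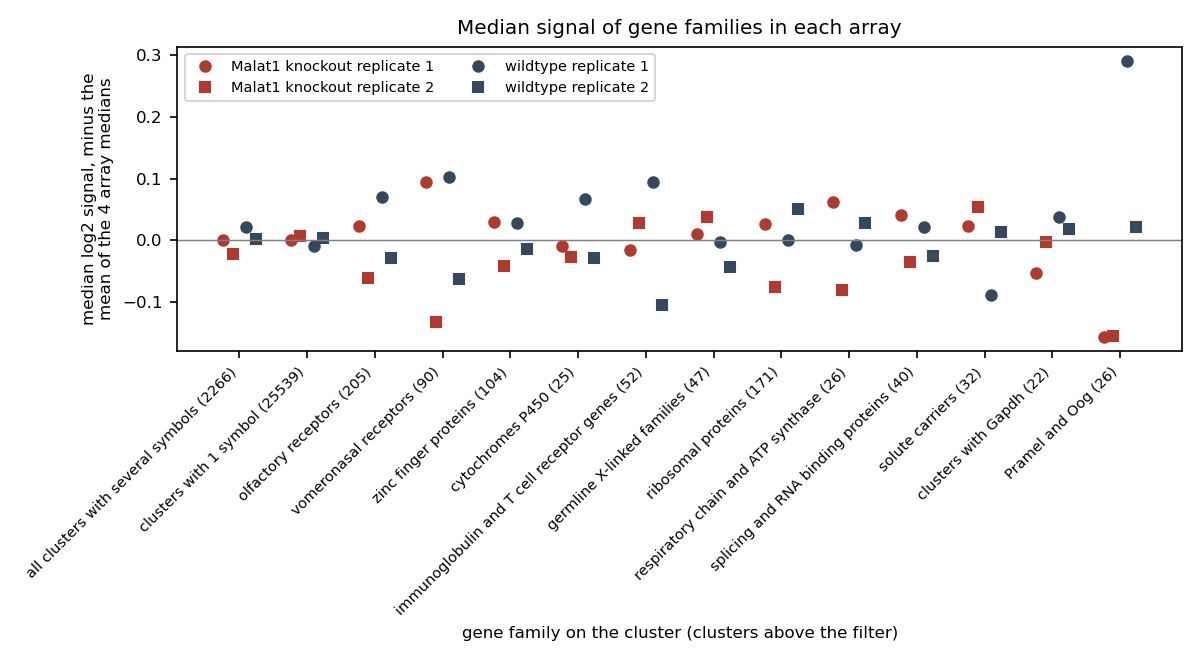
Median log2 signal of the clusters of each family in each array, minus the mean of the 4 array medians (y axis), with knockout arrays in red left of wildtype arrays in dark blue and circles and squares for replicates 1 and 2. In 9 of the 12 families and gene sets, replicate arrays of a genotype were farther apart than the genotypes' means, and wildtype replicate 1 stood highest for the Pramel and Oog clusters.

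Genes with roles in the nucleus or at the synapse showed small differences. Splicing and RNA-binding protein genes, some of whose products gather in nuclear speckles, stood on 40 clusters. Of these, 25 lay above 0, with a median of 0.01 and no unadjusted p under 0.05. Without wildtype replicate 1, 15 of the 40 lay above 0. Their differences lay between -0.22 and 0.14, and both ends named Hnrnp genes: Hnrnpa1;Gm5643 at the low end and Tex19.2;Hnrnpf at the high end. Hnrnpa1;Gm5643 had 9.03 and 8.82 in the knockout arrays, against 9.20 and 9.08 in the wildtype arrays, whereas another cluster with these symbols had 9.51 and 9.51 in the knockout arrays, against 9.49 and 9.34 in the wildtype arrays. Both pairs of groups were separate, in opposite directions, with differences of -0.22 and 0.10. They were -0.11 without knockout replicate 2 and 0.02 without wildtype replicate 2, in that order.

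Synaptic and ion channel genes stood on 9 clusters, with differences between -0.11 and 0.01. Slc1a2;2900019G14Rik, which names the main glutamate transporter of astrocytes, had 8.75 and 8.69 in the knockout arrays, against 8.79 and 8.81 in the wildtype arrays. Camk2g;Usp54, which names a calcium/calmodulin kinase gene, had 7.12 and 7.17 in the knockout arrays, against 7.13 and 7.13 in the wildtype arrays. The knockout values were the lower for the first and straddled the wildtype values for the second. Tubulin genes stood on 13 clusters, of which 8 lay above 0, with differences between -0.13 and 0.09.

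The 5 clusters of the mitochondrial genome, which encodes subunits of the respiratory chain and ATP synthase, all lay below 0, between -0.15 and -0.11. COX1;COX2 had 12.22 and 12.05 in the knockout arrays, against 12.31 and 12.22 in the wildtype arrays. Without knockout replicate 2, they lay between -0.10 and 0.01, and ND5;ND4;CYTB;ND4L;ND3, the lowest with all arrays, was the one above 0. The knockout values lay below both wildtype values in 3 of the 5, against 15.2% of all clusters tested, and the smallest unadjusted p in limma was 0.353. The 5 clusters read genes of shared precursor transcripts and are not 5 independent observations.

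Of the 10 clusters with a small RNA symbol, the brightest was Rprl1;Rprl2;Rprl3, named for copies of the ribonuclease P RNA. It had 10.90 and 10.87 in the knockout arrays, against 10.85 and 10.59 in the wildtype arrays, and its groups did not overlap. Its difference was 0.16, and that of Terc;BC107364, which names the RNA component of telomerase, was 0.09. Without wildtype replicate 2 these were 0.03 and 0.11, and without knockout replicate 1 they were 0.15 and 0.16. Their order was thus reversed without either of these arrays. Atn1;Rnu7, which names the U7 RNA of histone messenger processing beside the atrophin gene, had 9.01 and 8.98 in the knockout arrays, against 8.95 and 9.04 in the wildtype arrays. Its groups overlapped, and none of the 10 had an unadjusted p under 0.05. Among imprinted genes, Meg3;Dlk1 had 9.11 and 9.05 in the knockout arrays, against 9.01 and 8.94 in the wildtype arrays. Its groups did not overlap, with a difference of 0.11 (95% interval -0.20 to 0.42). Snrpn;Snurf stood on 2 clusters with differences of -0.06 and 0.00.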

How the data were processed

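Hippocampal RNA of 4 mice, 100 ng each, was labelled by in vitro transcription and hybridised to Affymetrix mouse exon arrays, per the labels' protocols. The authors deposited 1 table of log2 values, a log2 scale being read from the values themselves; for background correction, normalization and software, none of the sources used here says what was done. Per the submitters' processing notes, mm9 was the genome build. The number of arrays limits the precision.

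Symbols came from the platform annotation, with repeats of a symbol on a row counted once, and were matched to RefSeq GRCm38.p6 by gene ID or symbol: 6651 of 6825 symbol mentions were placed. Because that build differs from the arrays', it was used only for names, chromosomes, neighbours and the promoter windows, whose coordinates are its own. Groups were compared with limma 3.58.1 in R 4.3.3 (lmFit and eBayes) on all clusters with a mean of at least 4.95, with Benjamini-Hochberg adjustment. An exact permutation of 2 against 2 arrays cannot reach the threshold, so none was used. The procedure was tested on simulated data.

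Named clusters were any past the adjusted threshold; up to 12 per direction with the largest difference among those with separate groups and an unadjusted p under 0.01, filled up from those under 0.05; the 10 brightest; the 2 brightest and the 2 with the largest difference of each kind and family with at least 5 clusters; and the 3 with the most symbols. Clusters of repeated sets, of Gapdh, and of mitochondrial, Pramel, small RNA and imprinted genes were added after their values were seen. The members and lists were chosen with earlier results of these data known. Protein sequences were not used here, and no cluster had a microRNA symbol. The alternatives were a replicate block, quantile and median normalization, other filters, an intensity trend, annotated clusters only, leaving out each array, and narrower choices of clusters.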

Additional observations from a re-analysis of the deposited data

How the results depend on the processing

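In limma, the count of multi-symbol clusters past the adjusted threshold was 0 under every alternative run, with smallest adjusted p values of 0.713 to 1.00 over them. The count at an unadjusted p under 0.05 was 24, with 21 to 32 under the replicate block (25), both normalizations, both other filters and the trend, and 73 with annotated clusters only, where fewer clusters were tested and the fitted spread was smaller; it ranged from 8 to 35 with 1 array left out. Clusters whose groups did not overlap numbered 711 (31.4%, against 33.3% of all clusters tested). With 1 array left out they numbered 1345 to 1656, a rise that 3 arrays give by construction. These were 59.4% to 73.1%, against 63.2% to 69.9% of all clusters tested. The median difference was -0.014, -0.029 with array medians centred, and -0.028 to 0.0013 with 1 array left out. Clusters below 0 numbered 1310, and 1120 to 1348 with 1 array left out. With exactly 2 symbols, 858 of 1549 lay below 0, by the smaller number of clusters. Without histone symbols, an alternative chosen after seeing the data, 24 of 2205 had an unadjusted p under 0.05 and the median was -0.014. Malat1 kept its direction throughout, at -2.61 and between -2.70 and -2.52 with 1 array left out, and passed the adjusted threshold with annotated clusters only (-2.61, adjusted p = 0.0427). The gap to clusters with 1 symbol was 0.093, and 0.101 against the brightest of them.

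Of 124 named clusters, 50 changed sign under at least 1 alternative, none of them among the 17 named for their difference. Array numbers were not shown to pair litters: deviations of same-numbered arrays correlated at r = 0.228 over the multi-symbol clusters and 0.0159 over all, and the replicate block changed no call. Depth is limited by 2 arrays a group: the median half-width of a 95% interval was 0.325 log2 units.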
